A study of Mus musculus with 2 samples.

Results

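Chromatin that lies far from any gene start was examined in the fetal mouse testis. The peaks described are those on chromosomes 1 to 19 whose midpoint lay more than 100 kb from the listed start of every gene in the deposited feature list. There were 15115 such peaks, here called start-distant peaks, which is 14.2% of the 106565 autosomal peaks and part of 109215 peaks in all. They were set beside 15206 promoter peaks, whose midpoint lay within 1 kb of a start, and beside the 76244 intermediate peaks in between. The tissue was whole testis of E14.5 embryos that carried *Nr5a1-cre*, a Cre recombinase driven by the *Nr5a1* gene of gonadal somatic cells, and the *Rosa-tdTomato* reporter. No other genotype, treatment or age was compared. The same nuclei gave 1 RNA library and 1 ATAC library, a measure of open chromatin by transposase cutting, so no value below has a replicate and no test between samples could be made. The labels and methods do not state the number of embryos in the preparation. Intervals are exact 95% intervals (Clopper-Pearson for shares, Poisson for fragment counts) that cover counting error only and treat peaks or fragments as independent.

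Enhancers are stretches of DNA bound by transcription factors that raise the transcription of genes in cis, and they can act over long distances by looping. Many developmental regulators are flanked by long tracts without coding genes, called gene deserts, in which such distant elements lie. CTCF, a zinc-finger protein that anchors chromatin loops with cohesin, also binds far from promoters, usually at the same sites in many cell types. In the fetal testis, Sertoli cells enclose the germ cells in cords, and the interstitium between the cords holds the steroid-producing Leydig cells and mesenchymal progenitors. A surface epithelium covers the testis, and mesenchyme of the mesonephros adjoins it. NR5A1, the orphan nuclear receptor also known as SF-1, is a central regulator of Leydig and Sertoli cells.

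The name gene desert was not borne out for all members. By midpoint, 6414 of the 15115 start-distant peaks (42.4%) lay inside a protein-coding gene of the GENCODE M21 annotation (GRCm38, the assembly also called mm10), 407 (2.69%) inside another gene and 8294 (54.9%) outside every gene. Only 344 (2.28%) had their midpoint in an exon, against 50.4% of promoter peaks. The feature list gives a single start, or a range of starts, for each gene, and the rule used its first position. By the fuller GENCODE annotation, 445 members (2.94%) lay within 1 kb of the start of some GENCODE transcript, 264 of them of a protein-coding gene, and 1269 (8.396%) lay within 100 kb of the last start position of a gene. A total of 4255 (28.2%) were over 100 kb from every GENCODE transcript start, and 2787 (18.4%) were also outside every gene. The members are therefore described by their rule, as start-distant, and values for the 2787 are given where they bear on a result. The median distance to the nearest start was 170.7 kb (quartiles 127.3 and 260.9 kb), and the farthest lay 1735.7 kb away. The median width was 897 bases, against 888 bases for promoter peaks. Start-distant peaks made up between 10.2% (chromosome 11) and 19.04% (chromosome 16) of the peaks of a chromosome. The 500 members nearest the limit, at 100.007 to 103.0 kb, had a median of 54.4 fragments per kb, and the 500 peaks just outside it, at 97.1 to 99.9995 kb, had 55.8.

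Short windows of 60 bases are shown first, since the motif results given further on turn on such letters. They come from the RefSeq sequence of GRCm38, are written 5′ to 3′ on the strand given, and have motif matches in capitals. In the 3 lines with NR5A the capitals mark the NR5A motif CAAGGTCA, in the 2 with E-box the motif CAGCTG, and in the 3 with CTCF a match to the CTCF consensus with at most 1 mismatch. For NR5A and E-box they are the restricted peaks with the largest ratio among those of the class that hold the motif, and for CTCF the evenly open peaks with most fragments.
Sertoli-like restricted, NR5A, chr2:78399339-78399398, minus strand: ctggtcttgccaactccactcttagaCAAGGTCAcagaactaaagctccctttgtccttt
Leydig-like restricted, NR5A, chr17:5246922-5246981, minus strand: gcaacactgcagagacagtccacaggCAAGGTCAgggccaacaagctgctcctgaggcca
Progenitor-like restricted, NR5A, chr17:70174194-70174253, plus strand: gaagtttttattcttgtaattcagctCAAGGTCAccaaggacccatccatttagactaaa
Progenitor-like restricted, E-box, chr7:94975563-94975622, plus strand: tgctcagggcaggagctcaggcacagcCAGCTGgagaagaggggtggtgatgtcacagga
Progenitor-like restricted, E-box, chr11:56351999-56352058, plus strand: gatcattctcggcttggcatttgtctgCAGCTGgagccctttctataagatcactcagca
Even, CTCF, chr8:68062437-68062496, minus strand: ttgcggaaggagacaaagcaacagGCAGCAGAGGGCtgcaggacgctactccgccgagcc
Even, CTCF, chr12:17881660-17881719, plus strand: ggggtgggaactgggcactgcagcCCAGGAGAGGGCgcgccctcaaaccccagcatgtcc
Even, CTCF, chr7:115216919-115216978, plus strand: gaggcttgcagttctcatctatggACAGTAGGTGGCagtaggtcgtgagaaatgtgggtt

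Whole central windows of 300 bases are shown for a GC-rich and an AT-rich peak among the named restricted members, open in germ cells and in progenitors. Both are on the plus strand of GRCm38, with every match to the 15 motifs searched in capitals. The germ cell window lies outside every annotated gene body but 278 bases from the start of the processed pseudogene *Gm40848*, and its capitals are a reverse NFY match followed by 2 reverse SP matches. The progenitor window lies outside every gene, and its capitals are a reverse CTCF match followed by a homeobox match.
Germ-like, chr12:18387327-18387626: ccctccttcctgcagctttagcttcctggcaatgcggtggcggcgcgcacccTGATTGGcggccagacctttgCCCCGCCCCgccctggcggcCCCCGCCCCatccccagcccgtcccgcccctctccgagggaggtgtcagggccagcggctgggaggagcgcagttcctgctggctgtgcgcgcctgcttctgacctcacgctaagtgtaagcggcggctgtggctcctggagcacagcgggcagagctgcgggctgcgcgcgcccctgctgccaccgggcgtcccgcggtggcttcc
Progenitor-like, chr2:8509811-8510110: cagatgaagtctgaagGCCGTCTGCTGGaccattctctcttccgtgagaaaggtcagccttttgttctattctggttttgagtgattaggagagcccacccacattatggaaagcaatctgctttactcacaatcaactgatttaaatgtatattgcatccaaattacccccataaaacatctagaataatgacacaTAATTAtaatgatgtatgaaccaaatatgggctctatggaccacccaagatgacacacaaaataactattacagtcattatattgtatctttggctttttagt

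Of 9833 barcodes, 7668 nuclei passed thresholds on genes, fragments and mitochondrial, ribosomal and haemoglobin RNA, 470 were then removed by doublet score and 7198 were kept, with a median of 7952 RNA UMIs and 4475 unique ATAC fragments. Clusters were made from RNA alone, so that no peak took part in defining them, and were named from marker genes. The named classes with at least 300 nuclei were Progenitor-like (2572 nuclei), Mesonephric mesenchyme-like (1263), Germ-like (891), Leydig-like (786), Sertoli-like (706) and Surface epithelium-like (427). All markers of the Leydig (5), Sertoli (5), Germ (5), Surface epithelium (5) and Mesonephric mesenchyme (4) lists were highest in the class of that name, and 5 of the 7 Progenitor markers were. The Mesonephric mesenchyme-like cluster was led by *Rxfp2*, *Ntrk3* and *Itga8* but also by the smooth muscle genes *Myocd* and *Lmod1*, and it was not a single kind of cell at finer clustering. At resolution 0.6, 362 of its 1263 nuclei kept the name, 510 were Contractile-like and 391 Progenitor-like, and at the automatic doublet threshold 306 kept it and 756 were Contractile-like. Endothelial-like (93) and Immune-like (66) nuclei were too few for the comparison of classes.

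Start-distant peaks were shallow. Their median over all kept nuclei was 49.3 unique fragments per kb of peak (quartiles 34.2 and 78.4), against 67.2 at intermediate peaks and 397 at promoter peaks (quartiles 152 and 698). The ratio of the start-distant to the promoter median was 0.124. The median member had a fragment in 0.597% of nuclei, and the median promoter peak in 4.50%. Only 74 of the 15115 (0.490%) exceeded the promoter median. Members inside a protein-coding gene had a median of 52.6, those outside every gene 46.9, and the 2787 that were also over 100 kb from every transcript start 46.4 fragments per kb. The 445 within 1 kb of a GENCODE transcript start had 71.4, with an upper quartile of 148 against 78.4 for all members.

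**Figure D1:**
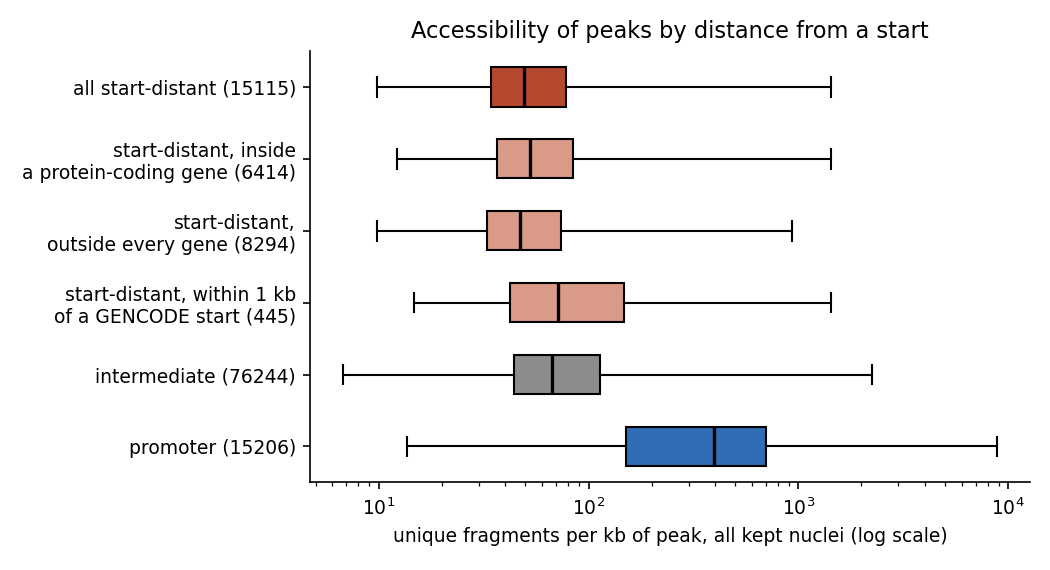
Unique ATAC fragments per kb of peak over all kept nuclei, on a log axis. Boxes give the quartiles, the line the median and the whiskers the lowest and highest peak, with the number of peaks in brackets. The start-distant box (34.2 to 78.4) lies wholly below the promoter box (152 to 698), and the upper quartile of start-distant peaks at other transcript starts (148) lies above that of all start-distant peaks.

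The shape of the signal differed as well as its height. Within 100 bases of the centre, start-distant peaks had 225 cuts per kb per peak, and beyond 1500 bases on either side 28.9, a ratio of 7.80. Promoter peaks had 1678 and 77.3, a ratio of 21.7, and intermediate peaks 339 and 55.0, a ratio of 6.16. Members within 1 kb of a GENCODE transcript start stood at 425 and 37.8, a ratio of 11.3. Fragments under 150 bases, the length that fits between nucleosomes, were 62.4% of the 925192 fragments at start-distant peaks, 64.0% at intermediate and 68.6% at promoter peaks. The median fragment length was 104, 97 and 87 bases in that order.

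The 3 members with most fragments per kb were inside the genes *Gtdc1*, *Specc1* and *Arid1b*, and were open in all 6 classes. The peak at chr2:44926752-44927688 had 1428 fragments per kb and between 82.3 (Surface epithelium-like) and 118 (Leydig-like) FPM (fragments at a peak per 1000000 fragments of that class at autosomal peaks). It lay 14 bases from a GENCODE transcript start of *Gtdc1*, a glycosyltransferase-like gene, and 170.8 kb from the start used by the rule. The peak at chr11:62076488-62077381, in *Specc1*, had 1155 fragments per kb, ranged from 63.9 (Sertoli-like) to 96.2 (Surface epithelium-like) FPM, and lay 60 bases from a *Specc1* transcript start. Both thus lie at annotated starts that the feature list does not carry as its first position. The third, chr17:5189568-5190459 in *Arid1b*, a subunit of the SWI/SNF chromatin remodeller, had 1049 fragments per kb and from 60.03 (Sertoli-like) to 72.9 (Germ-like) FPM, with intervals that overlapped between all classes. It was 77.9 kb from the nearest GENCODE transcript start.

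The classes put different shares of their fragments into start-distant peaks. In Progenitor-like nuclei 3.08% of 12263671 autosomal fragments overlapped one (3.07 to 3.09%), in Mesonephric mesenchyme-like 2.95%, in Surface epithelium-like 2.54%, in Leydig-like 2.31%, in Sertoli-like 1.97% and in Germ-like 1.38% (1.37 to 1.39%). No neighbouring intervals in this order overlapped, and the highest share was 2.24 times the lowest. The share at promoter peaks varied less, from 15.6% (Sertoli-like) to 17.6% (Surface epithelium-like). At intermediate peaks it ran from 13.5% (Germ-like) to 20.6% (Progenitor-like). The Endothelial-like share at start-distant peaks was 1.83% and the Immune-like share 1.08%, the lowest of all. A single peak list served all nuclei, of which Progenitor-like was the largest class; the part of class size in the order of these shares was not tested.

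Cell type restriction was read from equal depth. Fragments at autosomal peaks were thinned in every class to the 644203 of the Surface epithelium-like class (the Progenitor-like class had 5024145), and each peak with at least 30 fragments was thinned to 30. A peak was called restricted when its top class held at least 4 times the mean of the other 5. Of 15115 members 1592 (10.5%) had enough fragments, against 22.4% of intermediate and 79.4% of promoter peaks. A peak open in 1 class only can pass this minimum only through that class, so the shares below describe tested peaks and not all members. Restricted were 332 of the 1592 start-distant peaks, 20.9% (18.9 to 22.9%), against 14.2% (13.7 to 14.7%) of intermediate and 3.03% (2.73 to 3.35%) of promoter peaks. Over all 30768 autosomal peaks tested the share was 10.2%. In the opposite direction, 143 start-distant peaks (8.98%) were even, with every class at or above 0.5 of the mean, against 18.1% of intermediate and 35.4% of promoter peaks. The draw to 30 fragments adds scatter: with all fragments, 185 of the 332 (55.7%) still had a ratio of at least 4, and 312 (94.0%) the same top class. Counting only peaks past the ratio both ways gave 11.6% of tested start-distant, 8.59% of intermediate and 1.53% of promoter peaks.

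The order held at matched depth where peaks were many, and the share was higher at longer distances. Among peaks with 30 to 59 fragments before the draw, 22.4% of start-distant, 17.2% of intermediate and 10.7% of promoter peaks were restricted. With 60 to under 120 fragments the shares were 14.9%, 7.83% and 2.65%, and the intervals of start-distant (10.7 to 19.97%) and promoter peaks (2.14 to 3.24%) did not overlap. With 120 or more, 1 of 32 start-distant peaks was restricted (0.0791 to 16.2%), against 0.321% of promoter peaks, a difference not detectable at this number. By distance, with depth not matched, the share was 11.9% at 1 to 10 kb, 15.7% at 10 to 100 kb, 20.3% at 100 to 200 kb, 21.03% at 200 to 500 kb and 31.5% over 500 kb, the last from 17 of 54 peaks (19.5 to 45.6%) and not separable from the bands at 100 kb and beyond. The share was 21.03% in protein-coding genes, 20.5% outside every gene and 19.2% of the 240 tested peaks that were also far from every transcript start, with intervals that overlapped. Of members within 1 kb of a GENCODE transcript start, 18 of 138 (13.0%, 7.92 to 19.8%) were restricted.

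**Figure D2:**
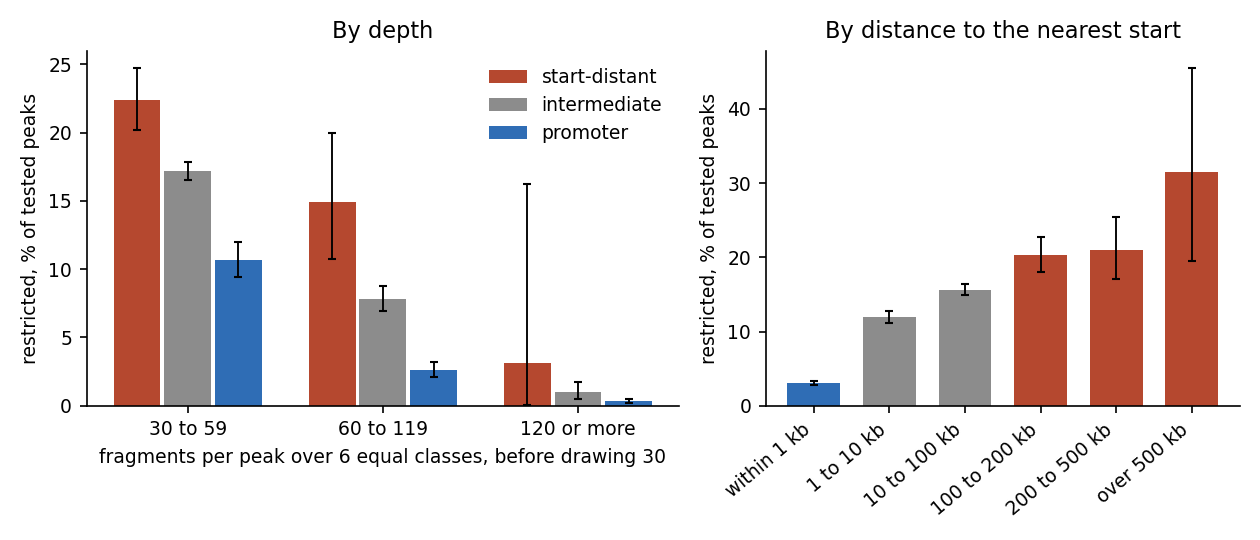
Share of tested peaks called restricted, in percent, with exact 95% intervals. Left, by number of fragments before the draw to 30, for start-distant, intermediate and promoter peaks; right, by distance to the nearest listed start, in the same colours. Start-distant peaks stand above promoter peaks in the bands 30 to 59 (22.4% against 10.7%) and 60 to under 120 (14.9% against 2.65%), and on the right the share climbs from 3.03% within 1 kb to 31.5% over 500 kb, where the interval is wide.

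The classes of restricted start-distant peaks were not those of promoter peaks. Of the 332 restricted members, 90 (27.1%) were open in Surface epithelium-like, 68 (20.5%) in Sertoli-like, 67 (20.2%) in Progenitor-like, 63 (18.98%) in Mesonephric mesenchyme-like, 25 (7.53%) in Leydig-like and 19 (5.72%, 3.48 to 8.79%) in Germ-like nuclei. Among restricted promoter peaks the germ cells led instead, with 230 of 366 (62.8%, 57.7 to 67.8%). Among restricted intermediate peaks the Sertoli-like class led, with 1006 of 2429 (41.4%). As shares of tested peaks, Surface epithelium-like restriction was 5.65% of start-distant peaks (4.57 to 6.90%) against 1.86% of all autosomal peaks, Progenitor-like 4.21% (3.28 to 5.31%) against 1.26%, and Mesonephric mesenchyme-like 3.96% (3.05 to 5.03%) against 0.767%. Leydig-like restriction was 1.57% (1.02 to 2.31%) against 0.874%. Sertoli-like restriction, at 4.27% (3.33 to 5.38%) against 3.69%, and Germ-like restriction, at 1.19% (0.720 to 1.86%) against 1.72%, had intervals that held the share of all peaks. Among tested intermediate peaks the shares were 2.59% Surface epithelium-like, 1.82% Progenitor-like, 0.953% Mesonephric mesenchyme-like, 1.33% Leydig-like, 5.88% Sertoli-like and 1.63% Germ-like. The start-distant intervals of Leydig-like and Germ-like held these, that of Sertoli-like lay below, and the rest lay above. Surface epithelium-like led again at resolution 0.6, but not at the automatic doublet threshold or with stricter minimums. At resolution 0.6, where Contractile-like nuclei stood apart, 124 of 488 restricted start-distant peaks were open in Surface epithelium-like, 112 in Mesonephric mesenchyme-like, 73 in Progenitor-like, 59 in Sertoli-like, 58 in Contractile-like, 45 in Leydig-like and 17 in Germ-like nuclei. At the automatic doublet threshold Mesonephric mesenchyme-like led with 86 of 373, and Surface epithelium-like and Contractile-like had 62 each. With stricter minimums, which left too few Mesonephric mesenchyme-like and Surface epithelium-like nuclei for a class, Sertoli-like led with 151 of 411. Germ-like had 17 to 23 restricted members, the fewest of any class, in all of these settings. With stricter minimums, though, that class took in a cluster of 197 nuclei led also by *Fshr*, *Erbb4* and *Hsd17b3*, genes that lead Sertoli-like clusters.

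**Figure D3:**
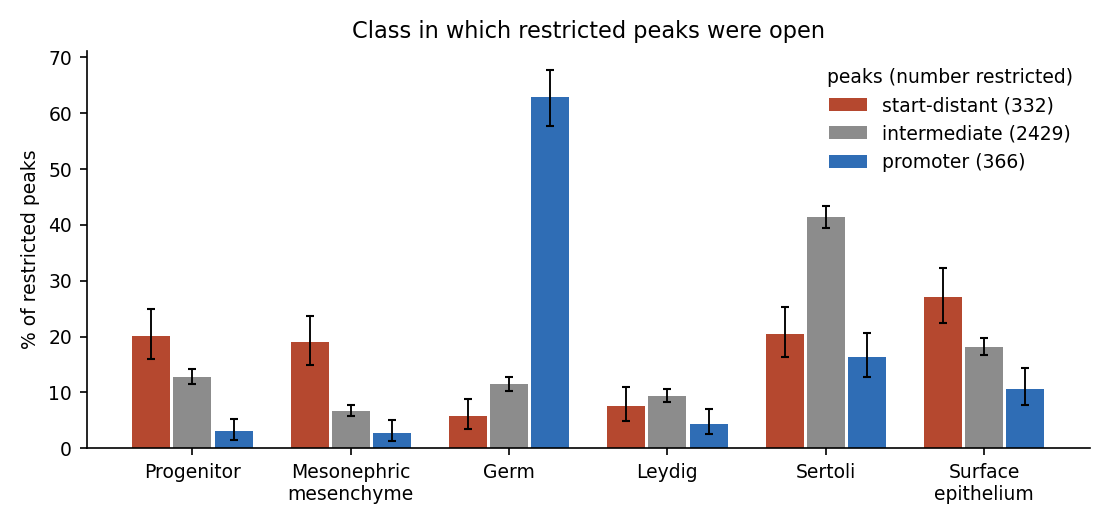
Class in which restricted peaks were open, as a percent of the restricted peaks of each kind, with exact 95% intervals; the legend gives the number restricted. Start-distant peaks are spread over the Surface epithelium, Sertoli, Progenitor and Mesonephric mesenchyme classes (18.98 to 27.1%), whereas 62.8% of restricted promoter peaks fall in germ cells.

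For each class the 2 restricted members with the largest ratio among those with at least 100 fragments are described; members with fewer fragments can have larger ratios, such as the Sertoli-like peak of the first NR5A window at 20.6. Ratios below are of the rate in the class to the mean of the other 5, from all fragments with 0.5 added to each count. For Progenitor-like nuclei the peak chr2:8509500-8510421, outside every gene and 679.6 kb from the nearest listed start, had 39.6 FPM (34.3 to 45.5), against 11.9 in Mesonephric mesenchyme-like, 7.50 in Leydig-like, 4.66 in Surface epithelium-like, 3.29 in Germ-like and 0.968 in Sertoli-like nuclei. Only the Progenitor-like value stood clear of the others. The second, chr7:94975199-94976112, had 23.9 in Progenitor-like nuclei, 0 to 8.34 in the rest, and no fragment at all in Sertoli-like or Surface epithelium-like nuclei (upper bounds 3.57 and 5.73). Its nearest protein-coding start, 1195.6 kb away, was that of *Tenm4*, a teneurin cell adhesion gene.

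For Mesonephric mesenchyme-like nuclei the peak chr2:144948996-144949914, outside every gene and 125.8 kb from *Scp2d1*, had 34.2 FPM (27.3 to 42.2), against 4.78 in Progenitor-like, 3.33 in Leydig-like, 1.94 in Sertoli-like and 0 in Germ-like and Surface epithelium-like nuclei. The ratio of the class to the mean of the rest was 14.2. The peak chr2:12023264-12024113, 245.2 kb from *Ankrd16*, had 35.4, with 8.56 in Progenitor-like nuclei as the next highest.

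The Germ-like extremes were the steepest of all named peaks. The peak chr5:92942215-92943035 lay over an exon of *Shroom3*, an actin-binding regulator of epithelial cell shape, and had 48.8 FPM (39.2 to 60.02) in Germ-like nuclei and 0 to 1.99 in the others, a ratio of 29.3. *Shroom3* RNA did not follow it, being highest in Surface epithelium-like nuclei (464 CPM, RNA UMIs per 1000000 of a class) and at 125 CPM in Germ-like nuclei. The peak chr12:18387044-18387910, whose window is printed above, had 61.4 (50.5 to 73.9) in Germ-like nuclei and 0 to 6.21 in the others, a ratio of 23.7.

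For Leydig-like nuclei the peak chr5:107183841-107184741 lay inside *Tgfbr3*, which encodes betaglycan, a co-receptor for TGFβ ligands and inhibin, 105.3 kb from its listed start and 8076 bases from another *Tgfbr3* transcript start. It had 30.8 FPM (21.7 to 42.5) in Leydig-like nuclei, 8.36 in Progenitor-like and 2.90 to 4.93 in the others. *Tgfbr3* RNA was also highest in Leydig-like nuclei, at 664 CPM, but close to the 566 CPM of Progenitor-like nuclei, and lowest in Sertoli-like nuclei at 16.1 CPM. The peak chr13:57584686-57585704, inside the proteoglycan gene *Spock1*, had 33.3 in Leydig-like nuclei and 9.35 in Progenitor-like as the next highest. *Spock1* RNA was at 44.9 CPM in Leydig-like and 125 CPM in Germ-like nuclei, and under 2.51 CPM in the other 4 classes.

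For Sertoli-like nuclei the peak chr3:68576161-68577079 lay inside *Schip1*, a cytoskeletal adaptor gene, and had 58.1 FPM (44.3 to 74.8), against 4.16 to 7.95 in the other classes. *Schip1* RNA was highest in Sertoli-like nuclei too, at 329 CPM against 6.90 to 57.7 CPM elsewhere, while *Il12a*, the gene with the nearest listed start at 114.0 kb, was at 0 to 0.250 CPM. The peak chr11:8482928-8483823, inside the focal adhesion gene *Tns3*, had 53.3 in Sertoli-like, 15.8 in Leydig-like and 2.19 to 9.31 in the other nuclei, and *Tns3* RNA was highest in Sertoli-like nuclei at 509 CPM. For both genes, peak and host RNA were highest in the same class.

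For Surface epithelium-like nuclei the peak chr4:13265048-13266081 had 58.99 FPM (41.7 to 81.0), against 10.7 in Mesonephric mesenchyme-like, 6.97 in Progenitor-like and 1.67 to 2.19 in the others. It lay outside every gene, 189.4 kb from the start of *Gm11820*. The peak chr4:96968933-96969723 had 48.1 in the same class, 15.9 in Mesonephric mesenchyme-like and 9.16 in Progenitor-like nuclei.

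The 3 tested members farthest from any listed start were all called restricted, but 2 of them only in the thinned counts. The peak chr3:43352552-43353400, 1610.4 kb from *D3Ertd751e*, had 15.9 FPM in Progenitor-like nuclei and 11.7 in the Leydig-like class, with overlapping intervals, and a ratio of 3.03 with all fragments. The peak chr5:56440150-56441047, 1277.3 kb from *4932441J04Rik*, had 28.1 in Progenitor-like and 21.1 in Mesonephric mesenchyme-like nuclei and a ratio of 2.75. The peak chr1:102862300-102863197, 967.7 kb from *Gm28187*, had 38.8 FPM (25.1 to 57.3) in Surface epithelium-like and 10.7 or less in the other nuclei, a ratio of 6.44. The Germ-like value was 1.10 to 4.38 FPM at all 3.

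**Figure D4:**
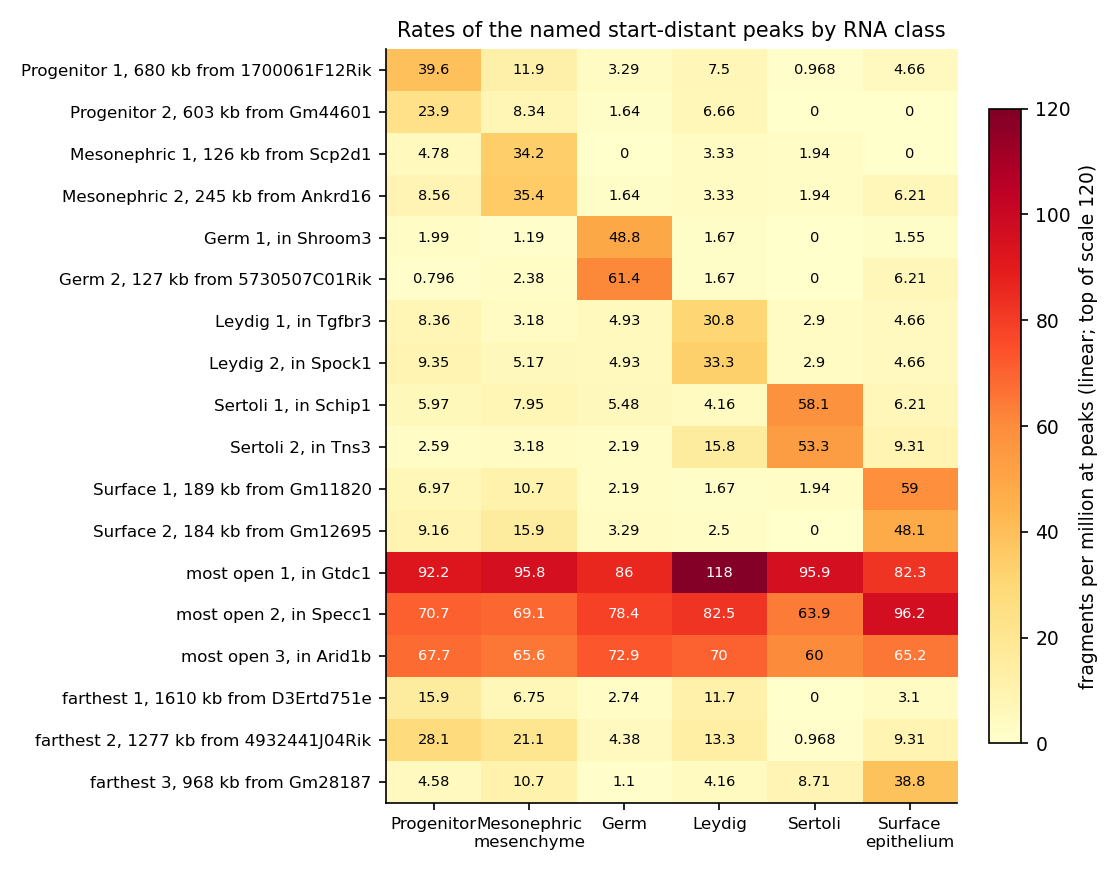
Fragments FPM at peaks in each of the 6 RNA classes for the named start-distant peaks, on a linear colour scale with the value printed in each cell. Rows give why a peak is shown (largest ratio in a class, most open per kb, or farthest from a start) and its host gene or nearest listed start. The pairs chosen by class are darkest in the column of their class (23.9 to 61.4, on a scale that runs to 120). The 3 most open peaks stand at 60.03 to 118 in all columns, and the farthest lie between 0 and 38.8.

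The sequence under start-distant peaks was poorer in G and C. Median GC content was 43.1% (quartiles 39.5 and 46.8), against 47.5% at intermediate and 59.5% at promoter peaks, and the CpG observed over expected ratio was 0.191, 0.228 and 0.698. Repeats, as soft-masked bases, took a median of 13.8% of a start-distant, 13.9% of an intermediate and 7.30% of a promoter peak, and 3.89% of members were over 50% repeat. Restricted members resembled the other tested members in GC (45.2% and 46.0%) and in repeats (10.8% and 11.4%). They divided by class: Progenitor-like restricted peaks had a median GC of 41.9%, Sertoli-like 47.3% and Germ-like 54.4%, with a CpG ratio of 0.502 in the 19 Germ-like peaks against 0.169 to 0.209 over the other classes. At intermediate peaks, where the other classes were not computed, the 279 Germ-like restricted peaks had a GC of 55.5% and a CpG ratio of 0.406.

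Motifs were counted in the central 300 bases, on both strands. The letters were CAAGGTCA for NR5A, AGATAAG for GATA factors, ACAATGG for SOX, AGGTCAAAG for DR1, ATGCAAAT for OCT, TGANTCA for AP-1, CATTCCA for TEAD, CAGCTG for E-box, TAATTA for homeobox, TTGACAG for TALE, CCGGAAGT for ETS, CCCNNGGGA for EBF, CCAATCA for NFY and GGGGCGGGG for SP, and the CTCF consensus was matched with at most 1 mismatch. NR5A and DR1 share AGGTCA, so that 1 stretch can hold both. The flanks, 28595 windows of the same length 2 kb to either side of a member and clear of other peaks, were counted as local background. A match is a description of the letters and not evidence of binding, and base composition, which differed among the sets, was not equalised.

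As a ratio to the flanks, CTCF and NR5A stood highest, and as a difference in percentage points, E-box. The CTCF consensus was in 8.78% of start-distant windows and 1.68% of flanks, against 13.7% over all autosomal peaks, and NR5A in 7.56% and 1.54%, against 6.19% over all. E-box was in 28.7% and 10.4% (27.4% over all), and the SP box of GC-rich promoters in 1.22% and 0.364% (5.41% over all). GATA was in 7.42% and 4.72% (5.47% over all), TEAD in 7.78% and 5.12% (6.19% over all), homeobox in 13.4% and 11.6% (7.61% over all) and AP-1 in 10.3% and 9.74% (8.87% over all). SOX (3.59% and 5.23%) and OCT (2.01% and 2.77%) were rarer in the peaks than beside them. Against promoter peaks, start-distant windows held NR5A (1.39% in promoters), GATA (1.68%) and homeobox (1.89%) more often, and SP (20.7%), ETS (0.384% and 6.50%) and NFY (3.91% and 9.26%) less often, with intervals that did not overlap for any of the 6. The remaining motifs were DR1, in 0.708% of members and 0.441% of flanks, TALE, in 4.52% and 4.44%, and EBF, in 4.14% and 2.39%.

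CTCF matches went with even opening. Among tested start-distant peaks with the consensus, 34 of 138 (24.6%, 17.7 to 32.7%) were even and 12 (8.70%, 4.57 to 14.7%) restricted. Without it, 7.50% (6.20 to 8.97%) of 1454 were even and 22.0% (19.9 to 24.2%) restricted. Restricted were 3.95% of intermediate peaks with and 16.4% without the consensus, and 1.74% of promoter peaks with and 3.13% without it. The promoter intervals overlapped. Even were 30.9% of intermediate peaks with and 15.4% without it, and 36.0% and 35.3% of promoter peaks. Members with and without the consensus had medians of 50.8 and 49.2 fragments per kb. In the 3 CTCF windows printed above the peaks had between 21.7 and 70.7 FPM in every class, which follows from their choice among even peaks.

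Motifs differed with the class in which a member was open. NR5A was in 14 of 68 Sertoli-like restricted peaks (20.6%, 11.7 to 32.1%), 5 of 25 Leydig-like (6.83 to 40.7%) and 8 of 67 Progenitor-like (11.9%, 5.30 to 22.2%), but in 1 of 63 Mesonephric mesenchyme-like (1.59%, 0.0402 to 8.53%) and 2 of 90 Surface epithelium-like (2.22%, 0.270 to 7.80%). Germ-like peaks held it in 1 of 19 (5.26%, 0.133 to 26.0%). The share was 7.56% of all start-distant peaks and 7.62% of tested ones that were not restricted, values above which only the Sertoli-like interval lay wholly and which the intervals of the other 5 classes held. Restricted intermediate peaks, which share no member with these, were likewise highest in Sertoli-like (19.98%), Leydig-like (14.47%) and Progenitor-like (9.003%), with 2.87% in Germ-like, 2.45% in Mesonephric mesenchyme-like and 0.905% in Surface epithelium-like. Of the peaks whose NR5A windows are printed, the Sertoli-like one, 161.8 kb from *Gm14461*, had 56.2 FPM in Sertoli-like nuclei and 0 to 4.66 in the others. The Progenitor-like one, inside *Dlgap1*, had 14.9 in its class, 7.50 in Leydig-like and no fragment in Sertoli-like or Surface epithelium-like nuclei. The Leydig-like one, in a protein-coding gene 141.7 kb from *Gm29050*, had 18.3 in its class and 11.1 in Progenitor-like nuclei, and its ratio with all fragments was 3.47, under the limit of 4. That ratio was the largest among Leydig-like members with NR5A outside chromosome 18, so none of those reached 4 with all fragments.

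E-box was in 40 of 67 Progenitor-like restricted members (59.7%, 47.0 to 71.5%), 41.3% of Mesonephric mesenchyme-like, 10 of 25 Leydig-like, 27.8% of Surface epithelium-like, 17 of 68 Sertoli-like (15.3 to 37.0%) and 15.8% of Germ-like. Among restricted intermediate peaks Progenitor-like was again highest, at 54.0%, and Germ-like lowest, at 19.4%. Homeobox was in 23.9% of Progenitor-like (14.3 to 35.9%) and 18 of 90 Surface epithelium-like but in 2.94% of Sertoli-like members (0.358 to 10.2%). TEAD was in 16.7% of Surface epithelium-like members, above 8.82 to 12.0% in the other somatic classes but with overlapping intervals. SP was in 6 of 19 Germ-like restricted members (31.6%, 12.6 to 56.6%) and in at most 1 member of any other class.

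**Figure D5:**
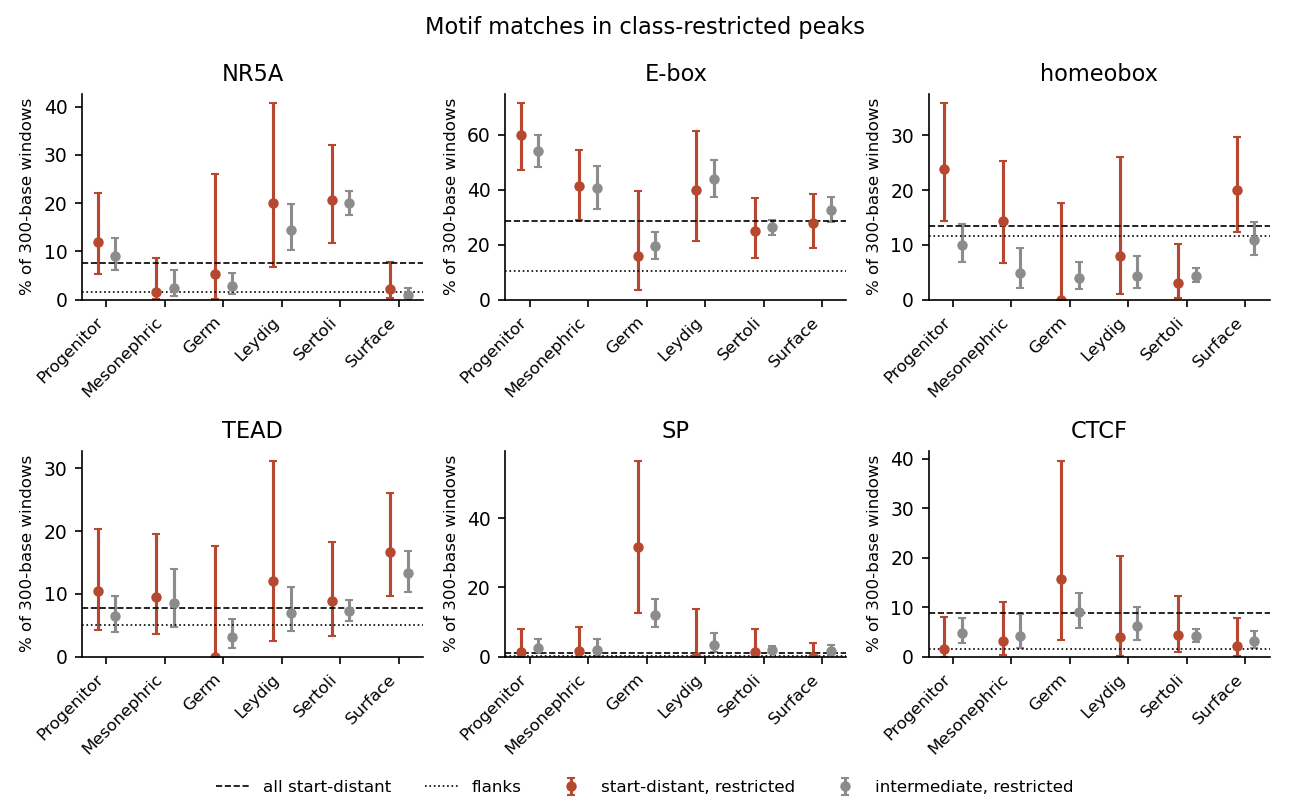
Share of central 300-base windows with a motif match, in percent, for restricted start-distant (red) and restricted intermediate peaks (grey) of each class, with exact 95% intervals; the dashed line is all start-distant peaks and the dotted line their flanks. NR5A is highest in the Sertoli and Leydig classes (14 of 68 and 5 of 25 members), E-box in Progenitor (59.7%) and SP in Germ (31.6%).

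The RNA of the nearest gene followed a restricted peak less often far from starts. Among restricted members whose nearest listed gene reached 10 CPM in some class, the gene was highest in the class of the peak for 48 of 172 (27.9%, 21.3 to 35.2%). Tested members that were not restricted gave 23.1% on the same measure with their top class, within that interval. For restricted intermediate peaks the share was 44.5% (41.7 to 47.4%) against 25.3%, and for restricted promoter peaks 67.1% (59.4 to 74.1%) against 24.3%. By class the start-distant shares ran from 8 of 40 (Mesonephric mesenchyme-like) to 11 of 33 (Sertoli-like). Set beside the percent of all tested start-distant peaks whose gene was highest in that class, Progenitor-like was 32.4% (17.4 to 50.5%) and 15.2%, and Sertoli-like 33.3% (17.96 to 51.8%) and 16.9%, while the intervals of the other 4 classes held that percent. For members inside a protein-coding gene, the host gene was highest in the class of the peak for 53 of 160 restricted peaks (33.1%, 25.9 to 41.0%) and 22.5% (19.2 to 26.1%) of 586 others, a comparison added after the values of the nearest genes were seen.

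The 332 restricted members had 297 different nearest genes, 5 genes had 3 or more, and 30 members had another restricted to the same class within 50 kb. No such counts for other peaks are set beside these, so they do not show whether restricted members were clustered or dispersed. A list of 42 developmental regulators, written with earlier results known and chosen for distant control or for roles in gonad cells was examined by nearest start. Of these genes 22 had at least 1 start-distant peak, 219 in all, of which 40 were tested and 7 (17.5%) restricted, close to the 20.9% of all tested members. *Sox9*, *Gata4*, *Nr2f2*, *Lhx9* and *Emx2* had none by this rule. Starts of noncoding genes also counted in it, and with protein-coding starts only there were 27954 members. The absence therefore does not show that these genes lack distant peaks. Among the 7 were 2 nearest to *Tshz2* and 1 each nearest to *Zfpm2*, *Nr5a2*, *Shh* and *Runx1t1*. Only *Tshz2* and *Zfpm2* had 5 or more tested.

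*Tshz2*, a zinc-finger homeodomain repressor, had 17 start-distant peaks, and the 8 tested lay inside a protein-coding gene, 102.9 to 240.8 kb from its start. Its RNA was highest in Progenitor-like nuclei at 5394 CPM, followed by 3755 CPM in Mesonephric mesenchyme-like, and lowest in Sertoli-like nuclei at 105 CPM. The peak chr2:169820794-169821714, restricted to Progenitor-like nuclei, had 23.3 FPM there (19.3 to 27.9), 9.14 in Mesonephric mesenchyme-like, 6.66 in Leydig-like, 6.21 in Surface epithelium-like, 5.48 in Germ-like and 0 in Sertoli-like nuclei. Its ratio with all fragments, 3.95, was just under 4. Its neighbours chr2:169814513-169815407 and chr2:169826080-169827085 had the same top class, at 23.9 and 21.5, with 17.9 and 15.9 in Mesonephric mesenchyme-like nuclei and overlapping intervals. The peak chr2:169735397-169736367 was restricted to Surface epithelium-like nuclei, at 21.7 (11.9 to 36.5) against 8.34 or less. That interval overlapped the Mesonephric mesenchyme-like one (5.17 to 12.8). Sertoli-like nuclei had 4 or fewer fragments at 6 of the 8 peaks, but 18.4 FPM at chr2:169873377-169874252, the farthest.

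*Zfpm2*, which encodes FOG2, a cofactor of GATA4 needed for testis formation, had 16 start-distant peaks and 5 tested, 169.9 to 321.2 kb from its start. Its RNA was highest in Surface epithelium-like (5549 CPM) and Mesonephric mesenchyme-like nuclei (5038 CPM), and stood at 3522 CPM in Sertoli-like and 276 CPM in Germ-like nuclei. The peak chr15:40896385-40897289, restricted to Mesonephric mesenchyme-like nuclei, had 23.4 FPM there (17.8 to 30.2), 12.5 in Progenitor-like and 2.19 to 4.66 in the others. The peak chr15:40850149-40851050 was highest in Sertoli-like nuclei at 35.8 (25.2 to 49.4), with 18.6 in Surface epithelium-like, and was not called, its top class holding 40% of the thinned fragments (ratio 3.85 with all fragments). The peak chr15:40913237-40914136 was open at 28.6 in Mesonephric mesenchyme-like, 25.9 in Progenitor-like and 21.7 in Surface epithelium-like nuclei, and the remaining 2 at 18.6 to 20.2 in Surface epithelium-like and 16.3 to 17.9 in Mesonephric mesenchyme-like nuclei, all with overlapping intervals. Germ-like nuclei were at 2.19 to 4.38 FPM at all 5 peaks.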

How the data were processed

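RNA and ATAC were measured in the same nuclei of a single preparation, with 1 library per assay. The authors deposited raw counts (UMIs for each gene, cuts for each peak) and a fragment list, made with Cell Ranger ARC 2.0.1 on mm10 per the submitters' processing notes. The files held 122049390 RNA UMIs and 58448458 unique fragments, of which 93.6% carried 1 of the 9833 listed barcodes. Unique fragments were recounted per peak, since a fragment can leave 2 cuts in the deposited counts (1.88 per fragment). Nuclei were kept with over 500 genes, under 10% mitochondrial and 10% ribosomal RNA, under 0.5% haemoglobin RNA, 250 to 25000 fragments at peaks and over 20% of fragments at peaks. Doublets were scored with Scrublet in scanpy 1.11.5, and the highest scores removed at 0.8% per 1000 nuclei (6.13%). RNA was clustered with leidenalg 0.10.2 (2000 variable genes, 30 components, 20 neighbours, resolution 0.3). Exact intervals were computed with scipy 1.17.1. Restriction calls were tested on simulated data. Named peaks were, per class, the 2 restricted peaks with the largest ratio among those with at least 100 fragments (0.5 added to counts), the 3 most open and the 3 tested peaks farthest from a start, with the tested peaks of list genes that had at least 5. The motif windows shown and the host gene comparison were chosen after values were seen. Members, lists and motifs were chosen with earlier results of these data known.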

Additional observations from a re-analysis of the deposited data

How the results depend on the processing

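Start-distant peaks were restricted more often than promoter peaks in all 18 settings that gave both values, by 1.84 to 16.2 times (6.88 as reported), but the shares themselves depended on settings. The classes compared also changed, from 6 to 5 with stricter minimums (Contractile-like in place of Surface epithelium-like and Mesonephric mesenchyme-like), to 7 at resolution 0.6 and at the automatic doublet threshold (Contractile-like added) and to 8 with classes of at least 50 nuclei, so that those shares measure a top class against other classes. For start-distant and promoter peaks in turn, they were 27.7% and 6.05% with deposited cuts, 35.1% and 8.63% with a minimum of 20 fragments, 10.0% and 0.619% with 60, 24.1% and 5.63% without thinning, 81.6% and 44.3% at 2 times the other classes, 3.45% and 0.579% at 8 times, 30.5% and 7.70% scaled by all fragments and 29.6% and 10.1% scaled by nuclei (both also without thinning the classes, so with the peaks tested in the setting without thinning), 10.6% and 2.41% without doublet removal, 30.1% and 4.95% at the automatic doublet threshold, and 7.69% (of 13 tested) and 1.22% with classes of at least 50 nuclei. Promoter peaks moved to 2.55% with stricter minimums and to 3.58% at resolution 0.6. Start-distant peaks gave 18.4% at a limit of 50 kb and 18.5% with protein-coding starts only. The cause of these moves was not tested, except that a smaller draw or a lower ratio admits more scatter by construction. The member share was 28.4% at 50 kb, 5.57% at 200 kb, 26.2% with coding starts only and 2.62% outside every gene and far from every transcript start. The accessibility ratio to promoters was 0.136, 0.112 and 0.117 at 50 kb, at 200 kb and outside genes, and 0.129 per peak. The highest class share over the lowest, Progenitor-like over Germ-like throughout, was 2.03 at 50 kb, 2.41 at 200 kb, 1.86 without doublet removal, 2.58 at the automatic threshold, 1.76 with stricter minimums and 2.01 at resolution 0.6. The other 13 values, among them those with repeat-rich peaks left out and 3 other draws (20% to 22.7%), stayed within the interval reported. The setting outside genes and the other draws were chosen after seeing the data. No paired analysis was possible because there is 1 library per assay. With 1 library per assay and 10.5% of members deep enough to test, the data cannot show how these shares vary between embryos or at the shallower peaks.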

Other observations

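A cluster of 305 nuclei led by *Pax8* had a median of 18861 UMIs, more than any named class. It was left unnamed because *Pax8* was on a marker list other than the one on which the cluster scored best. It was left out of the comparison of classes, and it held together poorly: at resolution 0.6, 89 of the 305 stayed in the *Pax8* cluster (median 10327 UMIs in that cluster), 141 were Sertoli-like and 75 Germ-like, and the automatic doublet threshold removed 237 and named 67 Supporting-like. The share that follows is of all 305. Its share of autosomal fragments at start-distant peaks was 2.30% (2.28 to 2.31%), with an interval that overlapped that of the Leydig-like share of 2.31% and stood above the Sertoli-like share of 1.97%, and its share at promoter peaks was 15.97%.

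*Dbx1*, a homeobox gene of the developing nervous system, was the nearest listed start of 22 start-distant peaks, of which 10 were tested and 3 restricted (2 to Sertoli-like and 1 to Surface epithelium-like), and its RNA was at 0 CPM in all 6 classes. All 10 lay inside a protein-coding gene, and the RNA of that host is not given here, so the value for *Dbx1* alone does not show that the peaks matched no RNA. By contrast *Agpat4*, an acyltransferase gene, had 3 restricted of 4 tested, 2 of them to Sertoli-like nuclei, where its RNA was highest at 308 CPM against 19.002 to 36.9 CPM elsewhere. *Gpc6*, a glypican, had 2 restricted to Mesonephric mesenchyme-like nuclei, where its RNA stood at 3736 CPM, next to 3136 CPM in Progenitor-like. The ratios of those 2 peaks with all fragments were 2.57 and 2.69, under the limit of 4. These genes were chosen after their values were seen.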
